A study of Homo sapiens with 6 samples.

Results

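Keratin transcripts were read on 1-colour arrays of U87, an established line of human glioblastoma cells. The 9 genes considered were KRT7, KRT8, KRT15, KRT17, KRT18, KRT19, KRT34, KRT80 and KRT81, and every probe set whose annotation named only one of them was taken. This gave 15 of 49293 probe sets, for 7 of the 9 genes, out of 19605 genes that the annotation names. KRT8 had 8 probe sets, KRT18 had 2, and KRT7, KRT15, KRT19, KRT34 and KRT80 had 1 each. The single KRT34 probe set was also annotated to LOC100653049, so its signal cannot be assigned to KRT34 alone. No probe set was assigned to KRT17 or KRT81, which were not analysed here. The compared groups were U87 cells overexpressing miR-151a and U87 cells overexpressing the control microRNA miR-NC, with 3 samples each. Both groups therefore carried an introduced microRNA. The arm of miR-151a, the means of overexpression and its duration are unstated in the sources used here. The labels do not say whether the samples came from separate cultures, so errors and p-values cover only the spread of these samples, possibly a technical one.

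The genes were chosen by their signal in these same arrays, and KRT7 and KRT15 were put first with their difference between the groups known. Their levels and differences are therefore given as a description, and the calls below are not independent evidence. A probe set was called when its Benjamini-Hochberg adjusted p in limma, over all probe sets, was under 0.05.

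Keratins are the intermediate filament proteins of epithelial cells. Acidic type I keratins and neutral to basic type II keratins form obligate heteropolymers, so a filament needs a partner of each type. KRT7 and KRT8 are type II keratins of simple epithelia, where they pair with the type I keratins KRT18 and KRT19. KRT15 is a type I keratin of the basal layer of stratified epithelia, KRT34 is a type I keratin of hair, and KRT80 is a type II keratin of epithelia. The type II genes and KRT18 lie together on chromosome 12 and the other type I genes on chromosome 17. In gliomas the main intermediate filament proteins are vimentin, nestin and GFAP.

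The array scale set what could be read from these probe sets. The median intensity of the 6 arrays ran from 57.1 to 58.6 and the lower quartile from 14.9 to 15.6. Only 3 of the 15 keratin probe sets, those of KRT15, KRT80 and KRT34, lay above the array median on all 6 arrays. The KRT7 probe set did so on the 3 miR-151a arrays alone. The other 11 lay below the median on every array, and 6 of these lay below the lower quartile on every array. The array median is not a limit of expression, so how many of these keratins were expressed is not settled here. The arrays also carry 23 background control probe sets, graded by the G and C content given in their names. Their intensity ran from 4.56 on the lowest array for the 3 G or C grade to 1440 on the highest array for the 25 grade, with array medians of 6.76 to 7.04. The G and C content of the keratin probes was not used here, so no keratin level is said to be above background. Between groups these controls differed by -0.03 to 0.05 on the log2(intensity + 1) scale. As a possible sign of RNA quality, the log2 signal of the 3 prime control over the 5 prime control was 0.29 with miR-151a against 0.40 with miR-NC for beta-actin, and 0.05 against 0.04 for GAPDH; its part in the keratin values was not tested.

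**Figure D1:**
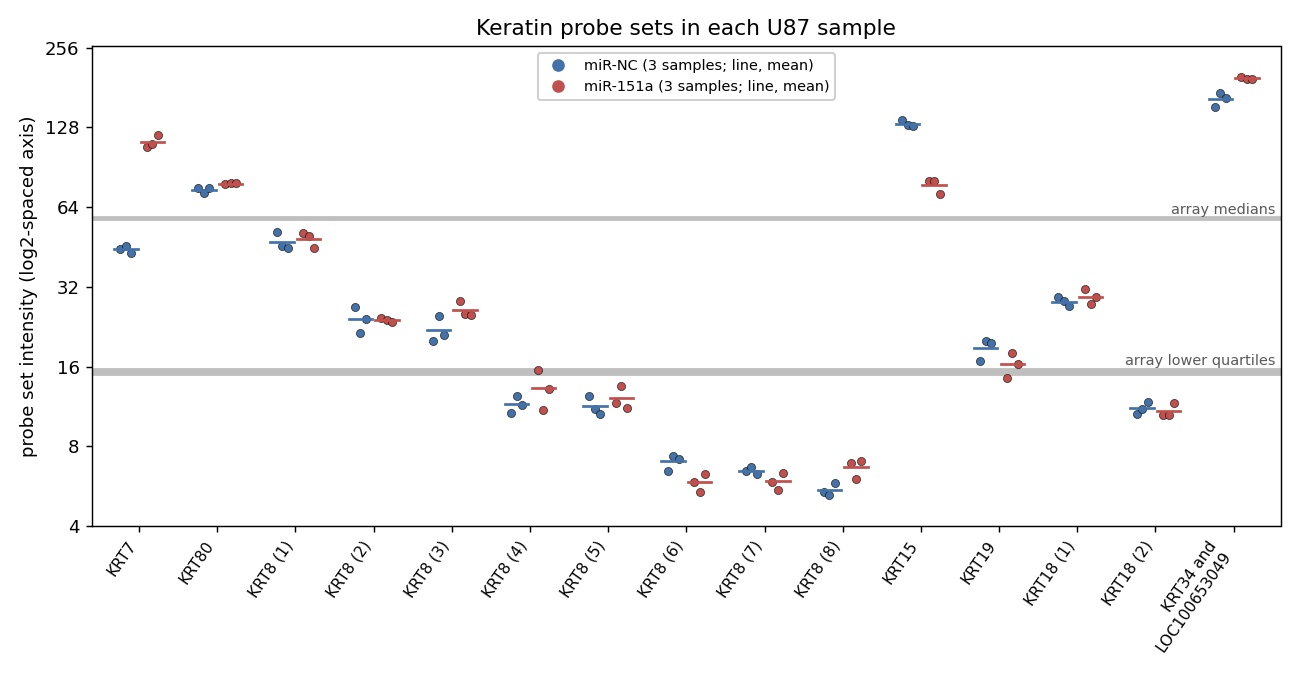
Intensity of each of the 15 keratin probe sets in every sample, on a log2-spaced axis, with miR-NC in blue and miR-151a in red, horizontal lines for group means and grey bands for the medians and lower quartiles of the 6 arrays. Several probe sets of a gene are numbered from bright to dim, and heights should be compared within a probe set only. KRT7 moves from 42.8 to 45.7 with miR-NC to 108 to 120 with miR-151a, and KRT15 from 130 to 136 down to 72.0 to 80.1.

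KRT7 rose with miR-151a. Its probe set, 11715683_a_at, read 108, 111 and 120 in miR-151a samples 1 to 3 and 44.5, 45.7 and 42.8 in miR-NC samples 1 to 3. The groups did not overlap, and all 3 control values lay below the array median while all 3 miR-151a values lay above it. The means were 113 ± 6.18 (SD, n = 3) and 44.3 ± 1.47 (SD, n = 3), a 2.51-fold difference on the log2(intensity + 1) scale. The log2 fold change was 1.33 (standard error 0.06, 95% interval 1.19 to 1.46). Of all 49293 probe sets, 68 had a larger rise. With a pseudocount of 32 in place of 1, which lowers the folds of dim probe sets, the log2 fold change was 0.92.

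KRT15 fell. Its probe set, 11728288_a_at, read 80.1, 80.1 and 72.0 in miR-151a samples 1 to 3, against 136, 131 and 130 in miR-NC samples 1 to 3. The groups did not overlap, and all 6 values lay above the array median. The means were 77.4 ± 4.68 (SD, n = 3) and 132 ± 3.40 (SD, n = 3). The log2 fold change was -0.77 with a 95% interval from -0.90 to -0.63, and 7 of all probe sets had a larger fall. KRT15 and KRT19 are neighbours in the keratin cluster of chromosome 17, and the KRT19 probe set had a log2 fold change of -0.19 with a 95% interval from -0.40 to 0.02.

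The probe set annotated to KRT34 and LOC100653049, 11729374_at, was called as higher. It read 198, 195 and 195 with miR-151a and 153, 172 and 165 with miR-NC. The groups did not overlap, and the spread was in the control samples. The log2 fold change was 0.26 with a 95% interval from 0.13 to 0.39. This call was lost when any single miR-151a sample, or miR-NC sample 1 or 3, was left out, and with the replicate number as a block. Over the alternatives the log2 fold change stayed between 0.22 and 0.30.

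KRT80, the neighbour of KRT7 in the chromosome 12 cluster, differed little. Its probe set read 78.1, 78.6 and 78.8 with miR-151a and 75.4, 72.5 and 75.3 with miR-NC. These values do not overlap, yet the log2 fold change was 0.08 with a 95% interval from -0.03 to 0.18, and it was not called. The interval lies wholly below that of KRT7, but KRT7 was put first with its difference known, so nothing is read from this.

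In total 2 of the 15 probe sets were called as higher and 1 as lower, and 12 were not called. Over all probe sets 6.81% were called as higher, 7.27% as lower and 14.1% in either direction. Groups were fully separated for 7 of the 15 (5 higher, 2 lower) and, without overlap in either direction, for 33.8% of all probe sets. The median log2 fold change of the 15 was 0.056, and that of all probe sets was -0.009. Because the choice of genes used this comparison, nothing is read from these counts.

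**Figure D2:**
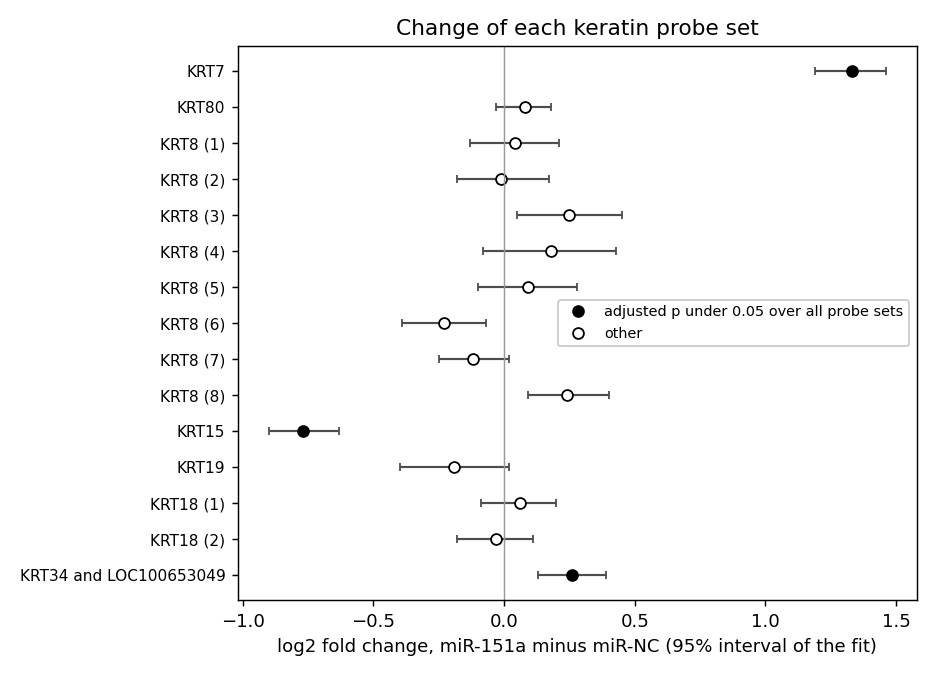
Log2 fold change of each keratin probe set, miR-151a minus miR-NC, on the log2(intensity + 1) scale, with the 95% interval of the fit; filled points were called over all probe sets. KRT7 stands at 1.33 and KRT15 at -0.77, while the 12 open points lie between -0.23 and 0.25.

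The partner keratins KRT8, KRT18 and KRT19 lay low on these arrays. All 8 KRT8 and both KRT18 probe sets carry the x_at suffix, which marks probes that can match other sequences, and KRT8 and KRT18 have many processed pseudogenes, so their values are uncertain. The brightest KRT8 probe set, 11755287_x_at, read 50.9, 49.9 and 44.9 with miR-151a and 51.6, 45.5 and 45.0 with miR-NC, and its log2 fold change was 0.04 with a 95% interval from -0.13 to 0.21. The 8 probe sets ran from -0.23 to 0.25 and differed in sign. The groups did not overlap for 3 of them. These were 11758188_x_at at 0.25, 11758184_x_at at 0.24 and 11758298_x_at at -0.23, and none was called. The latter 2 lay below 8 on every array, near the array medians of the background controls, 6.76 to 7.04. All 15 keratin probe sets lay within the full range of these controls. Without miR-NC replicate 2 the first of these was called, at 0.33. The second was called without miR-151a replicate 2, at 0.30, with quantile normalization, at 0.25, and with a variance trend and robust fit, at 0.24. The third was called as lower with median centring, at -0.24, and with a variance trend and robust fit, at -0.23.

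The brighter KRT18 probe set, 11757905_x_at, read 31.3, 27.6 and 29.2 with miR-151a and 29.3, 28.2 and 27.0 with miR-NC. Its groups overlapped, and its log2 fold change was 0.06 with a 95% interval from -0.09 to 0.20. The dimmer one was at -0.03 with a 95% interval from -0.18 to 0.11. KRT19 read 14.5, 18.0 and 16.4 with miR-151a and 16.8, 19.9 and 19.7 with miR-NC, near the lower quartile of the arrays, and its groups overlapped.

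Ratios within each sample show how unequally the readings of these probe sets changed. The KRT8, KRT18 and KRT19 probe sets are dim, so their small changes do not show that these transcripts stayed level. The log2 ratio of KRT8 to KRT18, by their brightest probe sets, had a mean of 0.71 ± 0.12 (SD, n = 3) in the miR-151a samples and 0.73 ± 0.06 (SD, n = 3) in the controls, a difference within the spread of the samples. The log2 ratio of KRT7 to KRT18 was 1.75, 1.97 and 2.00 with miR-151a and 0.59, 0.68 and 0.64 with miR-NC. It was therefore higher by 1.27 with groups that did not overlap, and the ratio of KRT7 to KRT19 was higher by 1.52. With a pseudocount of 32 the differences of KRT7 to KRT18 and to KRT19 were 0.90 and 0.99. The level of one probe set cannot be set against that of another, so these ratios carry only the change between groups. Ratios that use KRT7 or KRT15 restate the differences for which these genes were chosen.

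Among the keratins outside the 9 genes, KRT75 and KRT78 had the largest changes, and both are type II. The lists of type I and type II keratins hold 41 other measured genes, each read by its brightest probe set and tested over all 18132 genes. KRT75, a type II keratin of the hair follicle, read 156, 172 and 156 with miR-151a and 104, 99.2 and 108 with miR-NC. All 6 values lay above the array median, and the groups did not overlap. It rose 1.55-fold (log2 fold change 0.63, standard error 0.06, adjusted p = 0.00057 in limma). KRT78, another epithelial type II keratin, read 44.1, 43.6 and 39.9 with miR-151a and 28.1, 25.9 and 29.5 with miR-NC, below the array median on every array. Its log2 fold change was 0.60 (adjusted p = 0.0011 in limma), and 0.32 with a pseudocount of 32.

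By type, the calls outside the 9 genes went one way in each. Of 18 other type II keratins 4 rose and 0 fell in limma. At an unadjusted p under 0.05, 4 were higher and 1 lower. Beside KRT75 and KRT78 the genes that rose were KRT73 (log2 fold change 0.28) and KRT2 (0.24), both below the array median. Of 23 other type I keratins 3 fell and 0 rose, and at an unadjusted p under 0.05 these counts were 3 and 1. The genes that fell were KRT222 at -0.41, KRT12 at -0.27 and KRT23 at -0.23, all below the array median, with KRT12 and KRT23 below the lower quartile on every array. Of the 2 probe sets of KRT222 only 1 was called as lower, and with their mean KRT222 was at -0.27 (adjusted p = 0.036 in limma). Over all genes 7.27% were called as higher and 8.11% as lower. With the chosen genes included, the median log2 fold change was 0.054 for 21 type II and -0.024 for 26 type I keratins, beside -0.009 for all genes.

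The smaller calls were fragile. With miR-151a sample 1 or 2, or miR-NC sample 1 or 3, left out, 2 other type II keratins rose, and in each case they were KRT75 and KRT78. Of the 3 falls of other type I keratins 1 was left when sample 2 of either group was dropped, and 0 when miR-NC sample 1 or 3 was dropped, where 3 were still lower at an unadjusted p under 0.05 in limma. The falls numbered 1, KRT222, with a pseudocount of 32, with dim probe sets left out and with the replicate block, and the rises 2 with median centring. With a pseudocount of 32, KRT73 was at 0.12, KRT2 at 0.09, KRT222 at -0.22 and KRT12 and KRT23 at -0.06. Read by the brightest probe set annotated to 1 gene, 0 type I keratins were called as higher and 0 type II keratins as lower under the alternatives run, scaling included. Other probe sets went the opposite way: that of KRT34 and LOC100653049 was called as higher, and the dim KRT8 probe set 11758298_x_at as lower with median centring and with a variance trend and robust fit. Whether the types differ was not tested. Of the other keratins above the array median on all arrays, KRT10, a type I keratin of suprabasal epidermis, read 694 to 704 with miR-151a and 688 to 717 with miR-NC, with a log2 fold change of -0.02. KRT32, KRT33A and KRT6C were at 0.03, -0.07 and 0.01, and KRT33B, a hair keratin beside KRT34 on chromosome 17, was at 0.18 (adjusted p = 0.085 in limma).

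**Figure D3:**
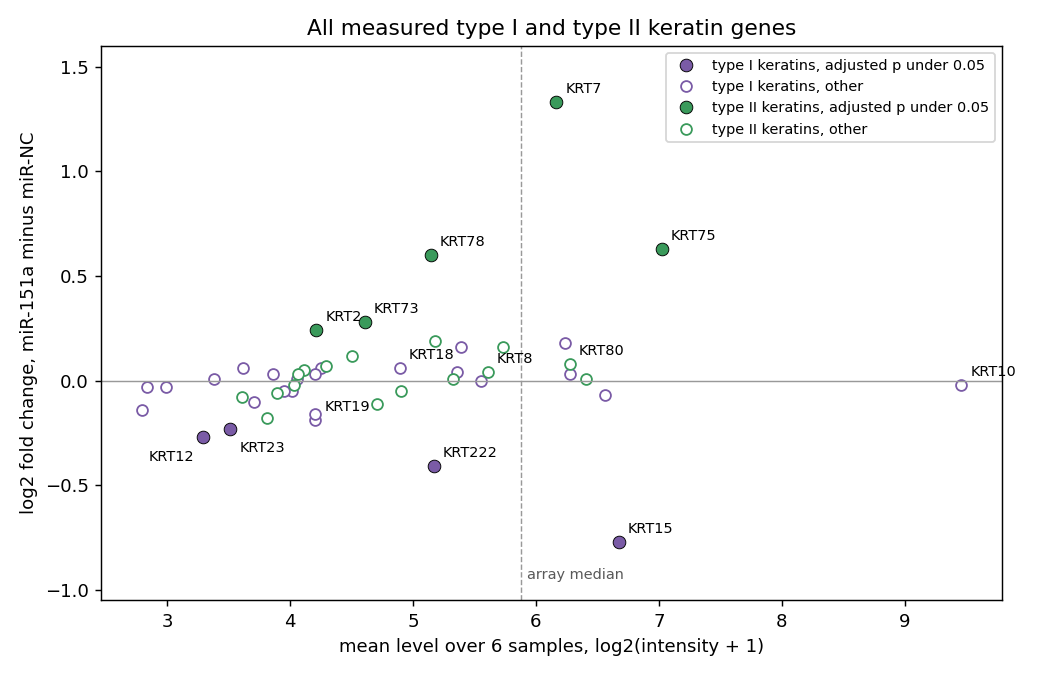
Log2 fold change, miR-151a minus miR-NC, against the mean level over the 6 samples for the brightest probe set of each of 26 type I (purple) and 21 type II (green) keratin genes; filled points passed an adjusted p of 0.05 over all genes and the dashed line is the array median. The filled green points are all above 0 and the filled purple points all below 0, and the probe set annotated to 2 genes, KRT34 and LOC100653049, is not drawn.

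Upstream sequence is shown for KRT75 and for KRT34, whose probe set is shared with LOC100653049, because both probe sets were called as higher and RefSeq entries on GRCh38.p14 were at hand. Each run holds the 250 bases before the annotated start, 5′ to 3′ on the gene's strand. Capitals mark matches to TATAAA, which is the core of a TATA box, or to CCNCNCCC, a core bound by KLF and SP factors.
KRT34, chr17:41382307-41382556, minus strand: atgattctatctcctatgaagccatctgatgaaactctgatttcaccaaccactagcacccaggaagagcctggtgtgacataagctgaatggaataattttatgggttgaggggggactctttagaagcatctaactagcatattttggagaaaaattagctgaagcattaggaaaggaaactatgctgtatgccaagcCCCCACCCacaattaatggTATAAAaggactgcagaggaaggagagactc
KRT75, chr12:52434372-52434621, minus strand: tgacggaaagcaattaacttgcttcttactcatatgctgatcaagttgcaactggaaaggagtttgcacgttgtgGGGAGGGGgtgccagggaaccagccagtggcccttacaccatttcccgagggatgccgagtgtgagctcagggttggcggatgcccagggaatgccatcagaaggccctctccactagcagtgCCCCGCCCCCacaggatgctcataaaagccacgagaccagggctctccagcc
Both strands were searched, also for TGANTCA, the AP-1 site. The KRT34 window held TATAAA from 31 bases upstream and CCNCNCCC from 50 bases upstream, with no overlap. The KRT75 window held CCNCNCCC at 3 places, of which those from 52 and 50 bases upstream overlap, and no TATAAA. Neither window held TGANTCA. The window of KRT8, for which no probe set was called in the reported setting, was also searched. It held CCNCNCCC from 149 bases upstream, and neither TATAAA nor TGANTCA. Of 27305 such promoters, 11.1% held TATAAA, 52.4% CCNCNCCC and 6.60% TGANTCA. These matches describe the letters only.

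Among factors known to act on epithelial genes, KLF5 rose. This zinc finger factor of epithelial progenitors read 420, 475 and 430 with miR-151a and 226, 231 and 236 with miR-NC. The groups did not overlap, and the log2 fold change was 0.93 (adjusted p = 7e-05 in limma), with all 3 of its probe sets called as higher. It was the 1 of 13 genes of epithelial transcription and splicing factors to pass, with 0 lower in limma, a share near the 7.27% of all genes called as higher. At an unadjusted p under 0.05, 3 were higher and 2 lower. The other 4 of these, which did not pass, were GRHL2 at 0.26, KLF4 at 0.13, TFAP2C at -0.20 and TFAP2A at -0.29, with adjusted p from 0.074 to 0.16 in limma. With the mean over their probe sets they were at 0.04, 0.21, -0.06 and -0.08. With this mean ESRP1 was at 0.36 and passed (adjusted p = 0.018 in limma). Its brightest probe set, at 0.20, lay below the lower quartile on every array and was not called. For ESRP1 and for OVOL1, 1 probe set each was called as higher. The count of 1 became 3 with miR-151a sample 3 left out and 2 with miR-NC sample 1 or 2 left out. The median log2 fold change of the list was 0.127.

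Desmosomes and plakins anchor keratin filaments. Of 19 desmosome and plakin genes 2 fell and 0 rose in limma, and at an unadjusted p under 0.05 these counts were 3 and 0. The share that fell was near the 8.11% of all genes called as lower. PERP, a desmosomal membrane protein, read 288, 275 and 306 with miR-151a and 360, 383 and 391 with miR-NC. It fell by 0.38 on the log2 scale (adjusted p = 0.0043 in limma), with all 3 of its probe sets called as lower. DSG2, a desmosomal cadherin, had a log2 fold change of -0.27 (adjusted p = 0.0097 in limma), again with all 3 probe sets lower. PLEC, which encodes the linker plectin, was at 0.04, and DSP, which encodes the keratin anchor desmoplakin, lay below the lower quartile on every array and was at 0.09. The median log2 fold change of this list was 0.024.

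Of 15 other intermediate filament genes 3 fell and 0 rose in limma, beside 8.11% and 7.27% of all genes, and at an unadjusted p under 0.05 these counts were 4 and 0. NES, which encodes nestin, read 129, 131 and 142 with miR-151a and 167, 161 and 169 with miR-NC, with a log2 fold change of -0.31 (adjusted p = 0.0079 in limma). The lamin genes LMNB1 and LMNB2 were at -0.28 and -0.18. LMNB2 did not pass with the mean over its probe sets, where it was at -0.08, and lost its call without any 1 sample. VIM, which encodes vimentin, was at 0.01 with a 95% interval from -0.09 to 0.11, and GFAP was at -0.04. The median log2 fold change of these genes was -0.041.

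Markers of cell types were set beside the keratin values, and their counts stand against 7.27% of all genes called as higher and 8.11% as lower. Of 10 measured epithelial cell markers 0 passed in limma, and at an unadjusted p under 0.05, 1 was higher and 1 lower; 1 passed without miR-151a replicate 2. Their summed intensity ran from 415 to 479 with miR-151a and from 404 to 405 with miR-NC. MUC1, the brightest of them, read 142 to 181 against 125 to 136, so these sums lean on a gene that did not pass. No marker was at 0, but no analysed probe set could be, as the lowest on each array read 4.15 to 4.33. Those with the smallest p were CLDN3, at -0.20, and MUC1, at 0.26, with adjusted p of 0.093 and 0.097 in limma. With the mean over its 13 probe sets MUC1 was at 0.11. CDH1, the epithelial cadherin, and MARVELD2, a tight junction protein, lay below the lower quartile on all arrays. MUC1 and CLDN4 lay above the median on all arrays. Of 10 glial markers 1, NES, fell and 0 rose in limma, with 2 lower and 0 higher at an unadjusted p under 0.05. The summed intensity of these markers ran from 418 to 435 with miR-151a against 448 to 467 with miR-NC. NES, the brightest of them, read 129 to 142 against 161 to 169, so these sums partly restate its fall. The glial factor OLIG1 lay below the lower quartile, while GFAP lay just above the median on all arrays. All 9 mesenchymal markers lay above the median on all arrays. Of these SNAI2, a repressor of epithelial genes, rose (log2 fold change 0.29, adjusted p = 0.0057 in limma), and COL1A2 and COL1A1, which encode collagen I chains, and CDH2, the neural cadherin, fell, at -0.39, -0.45 and -0.24, with the call of CDH2 lost in 5 of 13 alternatives. COL1A1 was at -0.23 with the mean over its 5 probe sets, of which 2 were called as lower. The sum of the 9 markers ran from 33802 to 35399 with miR-151a and from 34363 to 36517 with miR-NC. Of 8 immune and endothelial markers CD163 rose (log2 fold change 0.66, adjusted p = 0.0062 in limma), although it lay below the lower quartile on 5 arrays, and HLA-DRA fell (-0.38, adjusted p = 0.0014 in limma). CD163 was at 0.20 with a pseudocount of 32, and HLA-DRA at -0.25 with the mean over its probe sets. The summed intensity of the 8 markers ran from 1051 to 1077 with miR-151a and from 1320 to 1358 with miR-NC. HLA-DRA alone read 885 to 904 against 1142 to 1181, so these sums mostly restate its fall. The part of any of these in the keratin values was not tested. In bulk RNA more cells with a transcript and more transcript per cell cannot be told apart.

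Each gene was read here by its brightest probe set. Genes whose level followed KRT7 most closely over the 6 samples were PDE4DIP, SLC7A11 and CYTH4, with Pearson correlations of 0.9994, 0.9992 and 0.9990 among 9205 genes compared. SLC7A11, a cystine transporter, read 818, 804 and 858 with miR-151a and 339, 340 and 322 with miR-NC. Those closest to KRT15 were DLGAP5, a mitotic spindle gene, at 0.9986, TMEM33 at 0.9975 and CMIP at 0.9973. DLGAP5 read 701, 713 and 664 with miR-151a and 998, 957 and 945 with miR-NC. For CYTH4, TMEM33 and CMIP only 1 of 4 probe sets each was called, and for PDE4DIP, SLC7A11 and DLGAP5 all were called. With 2 groups of 3 samples such correlations mostly restate the difference between groups: 192 genes exceeded 0.99 for KRT7 and 45 for KRT15.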

How the data were processed

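Total RNA of 6 samples was labelled with biotin and hybridised to 1-colour arrays, per the labels' protocols. The authors deposited linear probe set intensities, 1 column per sample. The submitters' processing notes name MAS5; the normalization is unstated in the sources used here. Array quantiles were alike, so a change common to most transcripts cannot show. Of 49395 probe sets 102 controls were left out, and 44988 of the other 49293 named 1 gene in the platform annotation, 1832 several and 2473 none. Symbols were updated through Entrez identifiers for the 44961 that matched RefSeq.

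The groups were compared on log2(intensity + 1) by limma 3.58.1 (R 4.3.3, no covariate), adjusting p by Benjamini-Hochberg either over all probe sets or over 18132 genes read by their brightest probe set. Fold changes on this scale understate changes of dim probe sets. Intervals (95%) come from the same model. An exact permutation test of 3 against 3 samples has a smallest p of 0.1. On simulated data for the 49293 probe sets, recovery was 19.0% for log2 changes of 0.25, 65.5% for 0.5 and 96.5% for 1. The simulation shifted a far smaller share of probe sets than the 14.1% called in the data. These rates therefore do not give the power behind the uncalled probe sets. Precision is limited by the few arrays (median SD within groups 0.080 on the log2 scale).

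The genes and all lists were chosen with earlier results of these data known. Named were every probe set of the 9 genes, up to 4 passing genes of each list by smallest p (at most 2 where none passed), other keratins above the array median on all arrays, and the 3 genes most correlated with KRT7 and with KRT15; others, such as PLEC, DSP, GRHL2, KLF4, TFAP2C, TFAP2A, OLIG1, GFAP, VIM and MARVELD2, were named after their values were seen. Other settings tried were a pseudocount of 32, quantile normalization, centring on array medians, a robust fit with variance trend, the mean over probe sets, a replicate block, dropping the dimmest 0.25 of probe sets, and dropping each sample. Promoters came from RefSeq on GRCh38.p14, where 2 of the 9 genes had an entry. Figures were drawn with matplotlib 3.10.9.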

Additional observations from a re-analysis of the deposited data

How the results depend on the processing

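KRT7 and KRT15 kept their direction and their call under all 12 alternatives run, with log2 fold changes from 0.92 to 1.36 and from -0.79 to -0.59. The 3 called keratin probe sets became 5 with a variance trend and robust fit and 2 to 4 without 1 sample. The 4 calls of type I keratins became 2 with a pseudocount of 32, with dim probe sets left out and with the replicate block, and 1 to 3 without 1 sample; the 5 calls of type II keratins became 3 with median centring and 3 to 4 without 1 sample. With a pseudocount of 32 the change of the KRT7 to KRT18 ratio was 0.90, of KRT7 to KRT19 0.99 and of KRT8 to KRT15 0.61 (0.80 in the reported setting).

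The 6940 called probe sets became 10649 with the variance trend and robust fit, 4378 with the replicate block and 4082 to 4805 without 1 sample. The 3585 lower ones became 5396 with a pseudocount of 32, 5856 with the variance trend, 2052 with the block and 1893 to 2426 without 1 sample, and the 3355 higher ones 2171 to 2689 without 1 sample. The 2788 called genes became 4231 with the variance trend, 1727 with the block and 1709 to 2017 without 1 sample. The epithelial factors numbered 2 with quantile normalization, median centring, the variance trend or the mean over probe sets and 1 to 3 without 1 sample, the epithelial markers 1 with the variance trend and 0 to 1 without 1 sample, the glial markers 2 with the mean over probe sets, and the immune and endothelial markers 1 with dim probe sets left out. The causes of these shifts were not tested.

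Pairing of the samples by replicate number was not seen. The deviations of same-numbered samples correlated at -0.076, -0.121 and 0.066, and 1 of 3 correlated best with its own number. So few values cannot exclude pairing. Dim signal over background limits the KRT8, KRT18 and KRT19 values.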
